A study of Oryctolagus cuniculus with 3 samples.

Results

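Kruppel-like factors are transcription factors that bind GC-rich and CACCC-type DNA through C2H2 zinc fingers at the end of the protein. Some members mainly activate genes, others mainly repress them, and several have opposite effects on growth in the same tissue. In the mouse, Klf4 and Klf5 are known as genes that the corneal epithelium needs for its barrier and its upkeep. The family was set out here as 10 named genes, KLF2, KLF3, KLF4, KLF5, KLF6, KLF7, KLF9, KLF10, KLF11 and KLF13. Rows of the deposited tables were taken where the gene name equalled one of these, which found 9 of the 10, among 20536 gene names in all. The exception was KLF2, which had no row under its symbol and was left out. These 9 genes held 13 of the 38696 coding sequences, and all 9 passed the filter of at least 1 fragment per 1e6 fragments (CPM) in at least 1 library, as did 12818 genes of the series.

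The cells were RCE1(5T5), a line from rabbit corneal epithelium, read by RNA sequencing at 3 stages of culture. Day 4 was labelled non-differentiated, day 6 committed and day 10 terminally differentiated. Each stage was 1 library, so no difference has a replicate check and no test was run, and stage, day and library cannot be told apart. The cells were seeded onto a feeder layer of 3T3 mouse fibroblasts that mitomycin C had stopped from dividing, and EDTA was used to take the feeder off before extraction. The shared medium held fetal calf serum, insulin, transferrin, hydrocortisone, triiodothyronine, cholera toxin, adenine and EGF, so a glucocorticoid and a thyroid hormone were present at all 3 stages.

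The rounded library totals ran from 10171633 (day 4) to 12582648 fragments (day 6), with 10899544 for day 10. The labelled cell type was checked against its defining markers. KRT5, a keratin of basal epithelium, was at 15649.6, 23374.3 and 13552.4 CPM on the 3 days, and PAX6, a regulator of eye development, at 42.2, 127 and 358 CPM. The corneal keratin KRT3 was at 149.6, 954.0 and 2018.0 CPM, and KRT12, which pairs with it, at 0, 19.3 and 120.7 CPM. TP63, EHF and ELF3, epithelial regulators, were present throughout. KRT14 was also listed as a marker, but no row was found for it, so it was not analysed here. The 17 fibroblast and feeder markers that the tables hold summed to 7814 CPM on day 4, 4878 on day 6 and 3009 on day 10, with LUM at 0 fragments in each library. The largest parts of the sum were ACTA2 at 2362, 1644 and 1246 CPM and VIM at 1527, 1203 and 581 CPM. From day 4 to day 10, 15 of the 16 measured were lower and 1 was higher, THY1 at 19.6, 16.8 and 76.9 CPM. The part of fibroblast or feeder cells in any value below was not tested. In a bulk library, fewer cells of a type and less RNA per cell cannot be told apart. Endothelial markers, of interest because KLF2 and KLF4 are known from endothelium, summed to between 10.9 and 13.5 CPM, with PECAM1 and ESAM at 0 in all 3 libraries. Others were detected at low levels, with KDR at 2.39, 6.80 and 5.84 CPM and CLDN5 at 3.58, 1.16 and 1.60 CPM. Immune markers summed to 7.89, 27.6 and 73.5 CPM, nearly all of the rise being CD68, which epithelial lysosomes also hold, while CD3E, TYROBP, FCER1G and ITGAM stayed at 0. PTPRC had 16, 22 and 16 fragments and LYZ had 1, 5 and 34. Melanocyte markers summed to 7.07, 11.0 and 35.6 CPM, with PMEL at 1.47, 7.80 and 28.5 of these and MLANA, TYR and DCT at 0. SOX10 was at 3.40, 1.99 and 4.33 CPM and MITF at 2.20, 1.24 and 2.73 CPM. Whether endothelial, immune or melanocyte cells were present was not tested.

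Levels between genes were compared per length, with the authors' TPM summed over the coding sequences of a gene. As the sum of its 2 coding sequences, KLF5 was the highest member in each library, at 87.2 TPM on day 4, 34.7 on day 6 and 64.9 on day 10. That place depends on the sum. The coding sequences alone were at 42.4 and 44.8 TPM on day 4, 16.1 and 18.6 on day 6 and 29.4 and 35.5 on day 10, neither of them above KLF4. KLF4 was at 53.4, 24.9 and 35.5 TPM, though on day 6 counting error did not set it apart from KLF10. On day 4 they were followed by KLF10 at 44.0, KLF6 at 30.2, KLF3 at 26.3, KLF9 at 9.2, KLF7 at 6.5, KLF13 at 5.2 and KLF11 at 3.9 TPM. Neighbours in that order were set apart by their counting intervals, except KLF6 from KLF3, KLF7 from KLF13 and KLF13 from KLF11. By day 10 KLF9 had moved from the sixth place to the fourth, at 21.0 TPM, between KLF3 at 22.5 and KLF10 at 17.9 TPM. Counting error did not set KLF3 apart from KLF9, KLF9 from KLF10, or KLF10 from KLF6 at 15.6 TPM. KLF7, KLF13 and KLF11 were the lowest at all 3 stages, between 3.1 and 6.5 TPM, and in each library their neighbours overlapped too. The summed KLF5 ranked above 86.8%, 77.5% and 87.4% of the measured genes on days 4, 6 and 10, whereas KLF11 ranked above 26.7%, 34.0% and 24.3%.

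**Figure D1:**
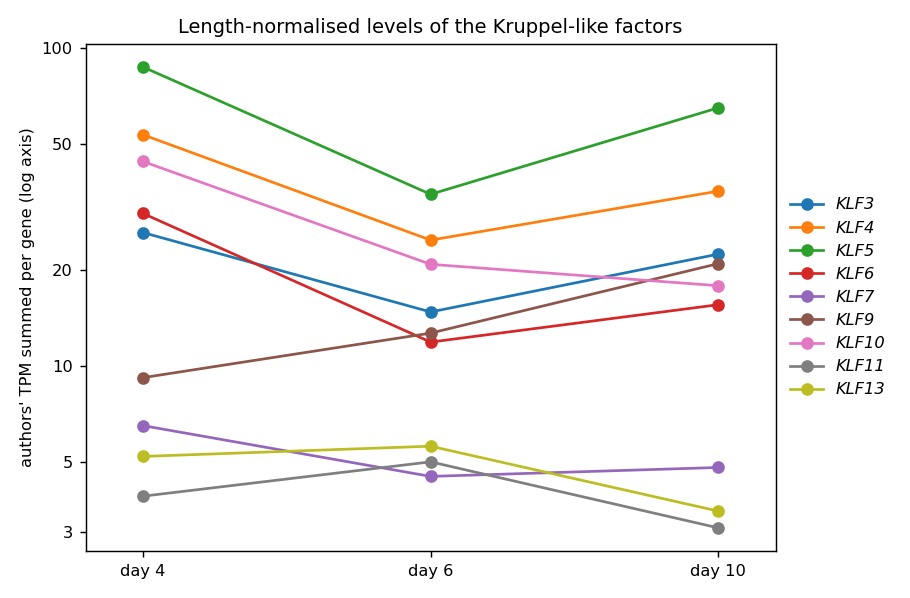
The authors' TPM summed per gene on a log axis for the 9 members, 1 point per library on days 4, 6 and 10, joined by lines for each gene. KLF5, as the sum of 2 coding sequences, is the top line throughout, while KLF9 climbs from 9.2 to 21.0 TPM into the middle group.

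Some of these rows are uncertain as gene models. The length implied by the deposited counts and FPKM was 338 bases for the coding sequence of KLF4, too short for a whole mammalian KLF4 protein and the shortest of the 13. Its TPM therefore rests on a small part of the transcript and may stand too high or too low against the other members, although the same sequence was counted in each library. KLF5 was the sum of coding sequences of 1375 and 660 bases, both filed under KLF5 in the RefSeq table. Both carried whole counts in each library, and whether 1 fragment can be in both was not settled. KLF3 was the sum of 4 coding sequences of 1038 to 1147 bases with fractional counts. The accession of the KLF13 row is listed in the RefSeq table of the later assembly mOryCun1.1 under LOC100349636, while the symbol KLF13 belongs to another gene there, so the KLF13 values may not be those of that gene. The same table gives the symbol KLF2 to LOC103345364. That row had 8, 4 and 3 fragments on days 4, 6 and 10, or 0.734, 0.332 and 0.283 CPM, below the filter in each library.

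Changes between stages are given in CPM after TMM scaling (trimmed mean of M values, from edgeR). A gene rose or fell where log2(CPM + 1) differed by at least 2-fold, a scale that understates the change of low genes. Folds of single genes are ratios of CPM, and brackets hold a 95% interval computed from the fragment counts by the exact Clopper-Pearson method, which covers counting error only.

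Between day 4 and day 6, 0 of the 9 members rose and 0 fell, where 8.06% of all measured genes rose and 6.73% fell (14.8% in either direction). Without replicates these shares describe the 2 libraries. In sign, 6 members were lower on day 6 and 3 were higher. Their median difference of log2(CPM + 1) was -0.46, against 0.00 over all measured genes. Between day 6 and day 10, again 0 of 9 rose and 0 fell, against 8.25% and 7.1% of all genes (15.4% together), and 6 members were higher, with a median of 0.39 against -0.01. From day 4 to day 10, 1 of 9 rose, which is 11.1% of the members against 17.1% of all measured genes, and 0 fell, against 15.8% (32.9% in either direction). The one riser was KLF9. These counts are at or below the shares over all genes.

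Scaling bears on these differences. With no TMM factor the median of all measured genes stood at -0.14 for day 6 against day 4 and at -0.11 for day 10 against day 4. With the authors' TPM it stood at -0.30 and -0.31. The share of risers among all changed genes was 54.5% for day 6 against day 4, but 39.3% with no TMM factor and 25.5% with TPM. For day 10 against day 4 it was 52.0%, and 31.9% with TPM. Taken relative to the median of all genes, the number of members above it was 3, 6 and 3 in the comparisons of day 6 with day 4, day 10 with day 6 and day 10 with day 4. A change of library scaling moves the members and that median alike, so it could hardly alter this count.

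**Figure D2:**
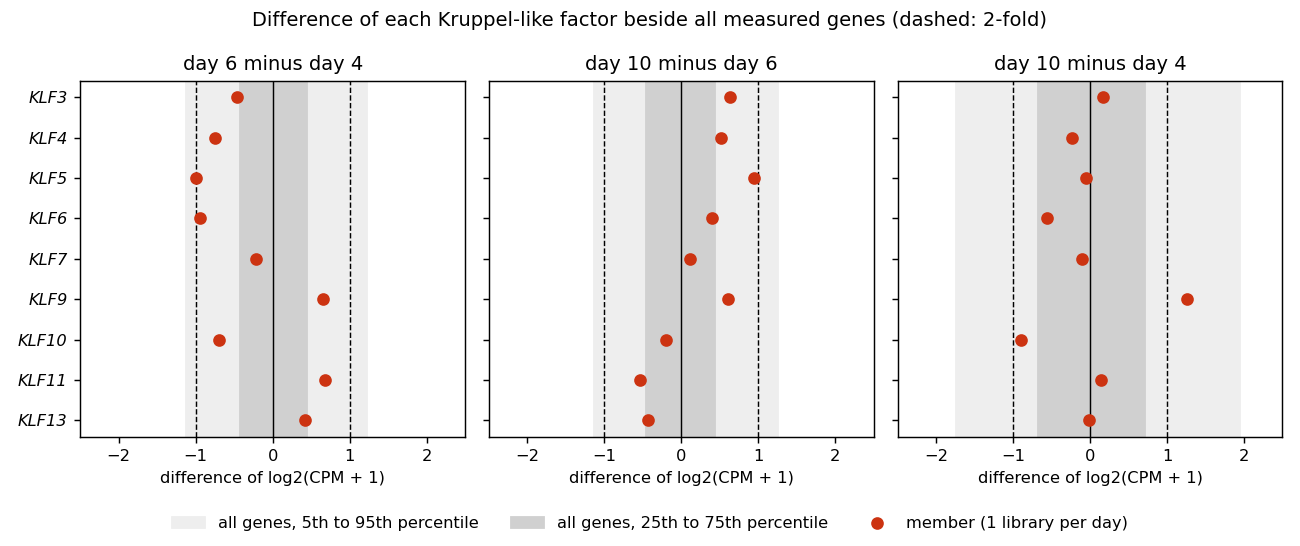
Difference of log2(CPM + 1) for each member in the 3 comparisons, 1 point per gene from 1 library per day, over grey bands for all measured genes and dashed lines at 2-fold. KLF5 and KLF6 sit just inside the 2-fold line on the low side for day 6 minus day 4, and KLF9 lies beyond it for day 10 minus day 4.

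Although few members crossed 2-fold, the order of the 3 libraries differed from gene to gene. KLF3, KLF4, KLF5 and KLF6 had their lowest level on day 6, with each step beyond its counting interval. That is 4 of 9 members, where 8.6% of measured genes had the same shape by the same criterion, a share that depends on how deeply each gene was read. By the sign of both steps alone it was 5 of 9 members, KLF7 added, against 22.1% of genes. KLF11 had its highest level on day 6 beyond counting error, a shape of 10.6% of genes. By sign alone KLF13 joined it, 2 of 9 against 22.8%. KLF9 was higher at each step, as were 12.9% of genes beyond counting error and 26.9% by sign. KLF10 was lower at each step, as were 14.1% and 27.9%. It met the counting criterion only narrowly, since the interval of its second step ended at 0.999. That criterion was read with TMM scaling only.

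KLF5 and KLF4 are the pair best known from the corneal epithelium. KLF5, which in many epithelia is high in proliferating basal cells, had 851, 468 and 800 fragments on days 4, 6 and 10. Scaled, this was 78.1, 38.8 and 75.3 CPM, so that the day 6 library stood alone and the other two were close to each other. The ratio of day 6 to day 4 was 0.497 [0.443 to 0.557], a difference of -0.99 in log2(CPM + 1), just short of the threshold. It crossed 2-fold with DESeq2 size factors, with no TMM factor, with TPM, with a pseudocount of 0.1 and with the highest coding sequence alone, so the call for KLF5 turns on the setting. From day 6 to day 10 KLF5 was 1.94-fold higher [1.73 to 2.18], and from day 4 to day 10 the ratio was 0.965 [0.875 to 1.06]. The closeness of days 4 and 10 depends on the scaling. On the log2 scale their difference was -0.05 in CPM but -0.42 with TPM, where the median of all measured genes was -0.31. Its longer coding sequence was at 52.8, 25.4 and 48.4 CPM and the shorter one at 25.3, 13.4 and 26.9 CPM. Both had their lowest value on day 6.

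KLF4, which drives the exit from the cell cycle and barrier formation in the epidermis of the mouse, had 219, 139 and 180 fragments. This was 20.1 CPM on day 4, 11.5 on day 6 and 17.0 on day 10, again lowest in the committed cells. The ratio was 0.574 [0.460 to 0.713] for day 6 against day 4 and 1.47 [1.17 to 1.85] for day 10 against day 6. Neither step reached 2-fold, except that KLF4 crossed it at the first step with TPM. From day 4 to day 10 the ratio was 0.844 [0.689 to 1.03], and that interval holds 1. KLF4 and KLF5 had their lowest level in the same library. The ratio of KLF4 to summed KLF5 fragments, which needs no scaling, was 0.257 [0.221 to 0.299] on day 4, 0.297 [0.244 to 0.360] on day 6 and 0.225 [0.190 to 0.265] on day 10. All 3 intervals overlap one another, but such overlap does not show that the ratios were equal. After day 6 the increase was 1.94-fold for KLF5 and 1.47-fold for KLF4.

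KLF6 and KLF3 followed the same order of days at other sizes. KLF6, a factor of the immediate response to growth signals and injury in many cells, went from 27.2 CPM (296 fragments) on day 4 to 13.6 (164) on day 6 and 18.2 (193) on day 10. Its ratio of day 6 to day 4 was 0.501 [0.411 to 0.608], a log2(CPM + 1) difference of -0.95 that crossed 2-fold with no TMM factor and with TPM. Only part of this came back by day 10, with a ratio of 0.669 [0.555 to 0.805] against day 4. KLF3, a repressor that recruits CtBP proteins, had 310, 246 and 340 fragments, or 28.4, 20.4 and 32.0 CPM. It was 0.717 of day 4 [0.604 to 0.851] on day 6 and 1.57-fold higher [1.33 to 1.86] on day 10 than on day 6. Each of its 4 coding sequences was lowest on day 6, with ratios of day 6 to day 4 of 0.693 to 0.735. KLF3 was 1.13 times its day 4 level on day 10 [0.962 to 1.32], a difference whose sign turned with TPM, from 0.17 to -0.22 on the log2 scale.

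**Figure D3:**
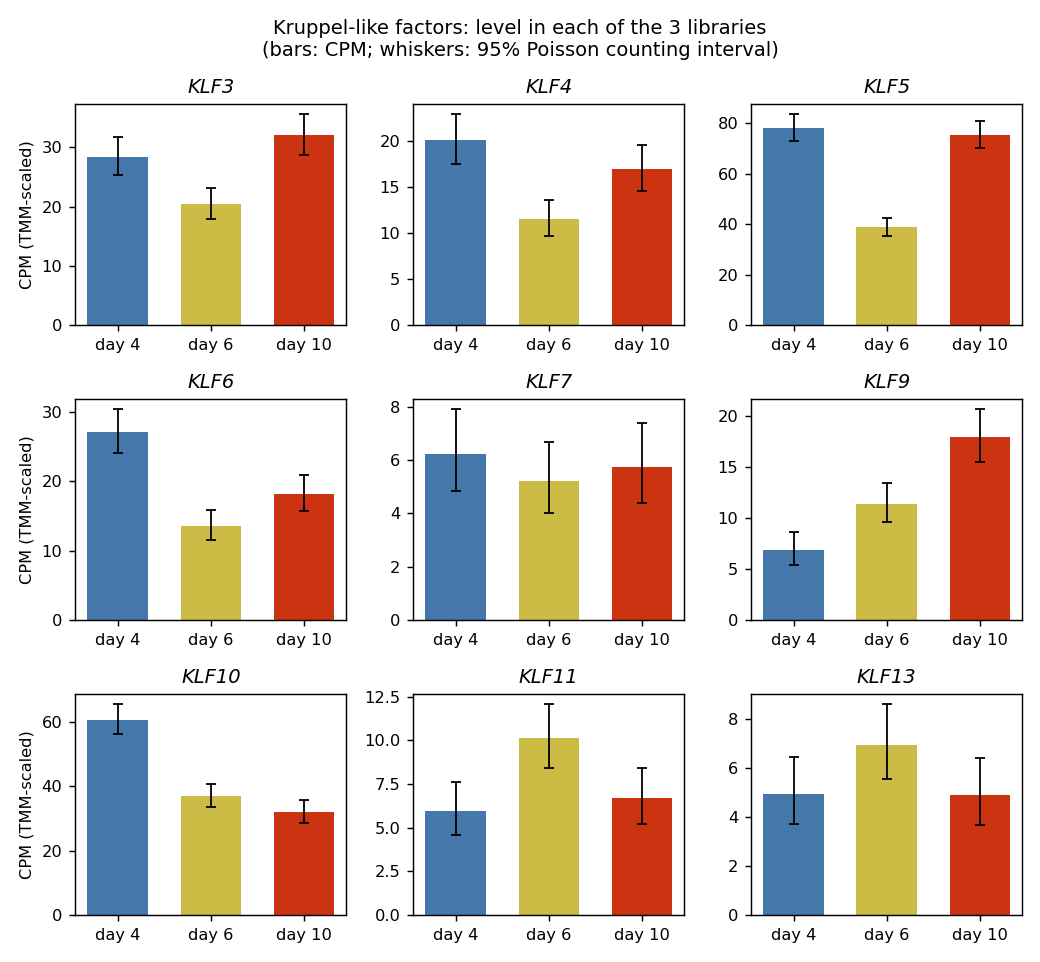
Level of each member in CPM, 1 bar per library on days 4, 6 and 10, with whiskers for the 95% Poisson counting interval. KLF3 to KLF6 have their lowest bar on day 6, KLF9 climbs from 6.88 to 17.9 CPM, KLF10 goes down from 60.8 to 32.0 CPM, and KLF11 is highest on day 6 at 10.1 CPM.

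KLF9 was the one member that passed 2-fold. It is a small factor that glucocorticoids and thyroid hormone induce in several tissues, and it restrains proliferation in human keratinocytes. Its fragments numbered 75, 137 and 190 in the libraries of days 4, 6 and 10, which is 6.88, 11.4 and 17.9 CPM. The 3 libraries did not overlap in their counting intervals, which ran from 5.41 to 8.63, 9.54 to 13.4 and 15.4 to 20.6 CPM. The first step was 1.65-fold [1.24 to 2.22] and the second 1.57-fold [1.26 to 1.98], and from day 4 to day 10 it rose 2.60-fold [1.98 to 3.44]. On the log2(CPM + 1) scale this was 1.26, a difference that 12.1% of measured genes exceeded. The genes with a symbol and at least 10 CPM whose 3 values lay nearest to the course of KLF9 were UBXN1, at 162, 253 and 389 CPM, and CHD6, at 18.3, 29.4 and 45.6 CPM. The Euclidean distance of their centred log2(CPM + 1) values was 0.009 and 0.010, over 3 libraries and 8094 candidates. There were 229 candidates within a distance of 0.2.

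KLF10 and KLF11, first described as early genes of the TGF-beta response, differed in direction at the first step and were both lower at the second. KLF10 had 662, 446 and 340 fragments in order of the days, or 60.8, 37.0 and 32.0 CPM. The first step held most of the difference, with a ratio of 0.609 [0.539 to 0.688], while the second was 0.866 [0.750 to 0.999]. From day 4 to day 10 the ratio was 0.527 [0.461 to 0.602], a log2(CPM + 1) difference of -0.90 that did not pass the threshold but did so with no TMM factor and with TPM. KLF11 had 65, 122 and 71 fragments, or 5.97, 10.1 and 6.69 CPM, and stood out on day 6. It was 1.70-fold higher [1.25 to 2.33] there than on day 4 and went to 0.661 of that level [0.486 to 0.893] by day 10. There were 10.2 fragments of KLF10 for each one of KLF11 on day 4 [7.89 to 13.4], 3.66 on day 6 [2.99 to 4.50] and 4.79 on day 10 [3.70 to 6.28]. The day 4 interval lies above both others.

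KLF9 and KLF10 differed in direction at both steps. The ratio of KLF9 to KLF10 fragments was 0.113 [0.088 to 0.144] on day 4, 0.307 [0.252 to 0.373] on day 6 and 0.559 [0.465 to 0.669] on day 10, and the 3 intervals did not overlap. The ratio of summed KLF5 to KLF10 fragments was 1.29 [1.16 to 1.43], 1.05 [0.920 to 1.20] and 2.35 [2.07 to 2.68], highest on day 10. These ratios do not depend on how the libraries were scaled, and the pairs were chosen after their values were seen.

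The other members were low. KLF7, known in the mouse for neuronal outgrowth, had 68, 63 and 61 fragments, or 6.24, 5.22 and 5.75 CPM, and all 3 counting intervals overlapped. The largest gap, day 6 against day 4, was a ratio of 0.837 [0.585 to 1.20], and a difference within that interval was not detectable at this depth. The row named KLF13, a gene known as a regulator of chemokine expression in human T cells, had 54, 84 and 52 fragments, or 4.96, 6.97 and 4.90 CPM. It was highest on day 6, yet the intervals of both steps held 1, at 1.41 [0.987 to 2.02] and 0.703 [0.488 to 1.01]. Summed over the 9 members, the family was at 239 CPM on day 4, 155 on day 6 and 209.8 on day 10, and at 265.9, 135.0 and 188.8 TPM. The summed KLF5 made up 32.8%, 25.7% and 34.4% of the TPM. With only the longer of its coding sequences the share was 19.2%, 13.8% and 19.2%.

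Other KLF and SP family genes, which share the zinc finger type, were also read. The tables held 14 of the 16 listed and 10 were measured. SP3 and SP1, which are widely expressed factors of GC boxes, were the highest in fragments, with SP3 at 58.3, 62.7 and 83.6 CPM and SP1 at 24.0, 28.2 and 28.2 CPM. SP2 fell 2.32-fold [1.65 to 3.29] from day 4 to day 10, from 10.9 to 4.71 CPM. The other call was SP6, an epithelial factor of skin and teeth in the mouse, which went from 22 fragments on day 4 to 5 on day 6 and fell by the same rule. In either direction 10.0%, 0% and 10.0% of the list were called in the 3 comparisons, against 14.8%, 15.4% and 32.9% of all measured genes. SP2 lost its call with read counts, SP6 with a minimum of 5 CPM, and both with a pseudocount of 5 and at a 4-fold threshold. KLF8, a CtBP-binding repressor like KLF3, was at 3.67, 7.88 and 6.78 CPM and did not pass the threshold. The median differences of these 10 genes were 0.04, -0.01 and 0.16 for day 6 against day 4, day 10 against day 6 and day 10 against day 4, beside 0.00, -0.01 and 0.01 over all measured genes.

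Among 9 cofactors that KLF proteins are known to bind, KAT2B rose and none fell. This acetyltransferase was at 9.36, 19.6 and 46.9 CPM, and it rose 2.40-fold [2.05 to 2.81] between day 6 and day 10 and 5.01-fold [4.04 to 6.26] over the whole course. The corepressor CTBP2 was at 176, 209 and 109 CPM, with no call. In either direction 0%, 11.1% and 11.1% of the list were called in the 3 comparisons, against 14.8%, 15.4% and 32.9% of all measured genes. The list median was 0.32 at the first step and -0.56 at the second, against 0.00 and -0.01 for all genes.

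Among 11 ubiquitin ligases that are known to act on KLF proteins, the first step had 1 riser and 2 fallers, 3 rose and 0 fell between day 6 and day 10, and 3 rose and 2 fell over the whole course. In either direction that is 27.3%, 27.3% and 45.5% of the list, against 14.8%, 15.4% and 32.9% of all measured genes. SMURF2 fell 2.39-fold [2.11 to 2.72] and SMURF1 2.10-fold [1.79 to 2.48] by day 6. WWP1, a ligase for KLF5 in human cells, was at 33.6, 54.5 and 114.5 CPM and rose 3.41-fold [3.03 to 3.84] from day 4 to day 10. ITCH, which acts on KLF10 in mouse T cells, rose 2.34-fold [2.16 to 2.54] after day 6 to 171 CPM. FBXO32 rose from 4 fragments on day 4 to 150 on day 10, and FBXO22 fell 2.76-fold [2.27 to 3.38] over the same days. The list medians stayed near those of all genes, at -0.18, -0.02 and -0.03 in the 3 comparisons.

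Upstream of KLF2 and KLF4 in endothelium lies the ERK5 kinase with its MEF2 targets. Of 7 such genes, MEF2A and MEF2C rose between day 4 and day 6, MEF2A by 2.18-fold [1.86 to 2.55], and none fell. MAP3K2 rose 2.20-fold [1.72 to 2.84] after day 6, having had its lowest level there, at 16.1, 8.21 and 18.1 CPM. Over the whole course MAP2K5 rose 2.28-fold [1.90 to 2.74], while MAPK7, which encodes ERK5 itself, fell 3.23-fold [2.41 to 4.39] from 18.3 to 5.65 CPM. In either direction 28.6%, 14.3% and 28.6% of the list were called in the 3 comparisons, against 14.8%, 15.4% and 32.9% of all measured genes. The median of the list was -0.13 at the first step and 0.15 at the second.

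The TGF-beta list was read because of KLF10 and KLF11. At the first step 1 of its 14 genes rose and 4 fell, 35.7% against 14.8% of all genes. The riser was TGFBI, a matrix protein of the cornea, at 6.95-fold [6.43 to 7.51]. Among the fallers were the ligand TGFB2 at 3.97-fold [2.90 to 5.53], the inhibitor SMAD7 and the corepressor SKIL. Between day 6 and day 10 SKIL rose 7.17-fold [5.15 to 10.2] and LTBP1, which holds latent TGF-beta, fell 2.06-fold [1.86 to 2.29]. Together they were 14.3% of the list, against 15.4% of all measured genes. From day 4 to day 10, 1 rose and 3 fell, 28.6% of the list against 32.9% of all measured genes, and the list median was -0.05. KLF10 and TGFB2 were both lower on day 6 and day 10 than on day 4, with TGFB2 at 16.8, 4.23 and 6.31 CPM. By sign they parted after day 6, where TGFB2 was higher and KLF10 lower. The other ligand genes differed, with TGFB1 at 6.24, 6.22 and 10.5 CPM and TGFB3 at 4.50, 3.90 and 2.26 CPM. At the first step 10 list genes were lower by sign and 4 higher. At the second 3 were lower and 11 higher. SKIL was lowest on day 6. A link between KLF10 and this list was not tested.

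Of 11 genes tied to glucocorticoid or thyroid hormone response, a list read beside KLF9, 2 rose at the first step, 2 at the second and 3 over the whole course, and 0 fell in each. The risers were 18.2%, 18.2% and 27.3% of the list, against 8.06%, 8.25% and 17.1% of all measured genes. TSC22D3, a glucocorticoid-induced leucine zipper gene, was at 13.1, 44.5 and 59.2 CPM and rose 4.51-fold [3.76 to 5.45] from day 4 to day 10. ZBTB16 rose 18.6-fold [9.55 to 41.4] over those days, from 9 fragments to 163. The glucocorticoid receptor gene NR3C1 was at 12.5, 23.0 and 29.4 CPM and also rose from day 4 to day 10. PER1 and DUSP1 rose after day 6, by 2.15-fold [1.91 to 2.43] and 3.74-fold [3.13 to 4.49], both from a low on day 6. The thyroid hormone receptor THRA was highest on day 6, at 16.9, 32.0 and 17.0 CPM, and THRB was at 11.8, 11.4 and 6.88 CPM, with no call for either. The list median was -0.05 at the first step, 0.34 at the second and 0.60 from day 4 to day 10, against 0.00, -0.01 and 0.01 over all genes. HR, at 162, 96.1 and 92.0 CPM, was lower on days 6 and 10 without passing the threshold.

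Immediate early genes were read beside KLF6 and KLF10, which belong to that kind of response in many cells. None of the 14 rose at the first step, whereas 6 fell, 42.9% against 6.73% of all genes. The list median was -0.66, that of all genes 0.00. FOSL1 fell 20.2-fold [15.0 to 27.8] and CYR61 15.0-fold [11.5 to 19.9], and EGR3, IER3, ZFP36 and CTGF fell as well. FOS went from 13.2 to 12.3 CPM, JUN from 23.8 to 20.5 and EGR1 from 10.7 to 8.38, none of them past the threshold. CTGF alone rose after day 6, by 3.83-fold [3.27 to 4.49], which is 7.1% of the list against 8.25% of all genes. The fibroblast and feeder markers moved in the same direction at the first step, with 4 of 16 measured genes down and 0 up and a median of -0.86.

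Corneal and barrier genes and cell cycle genes hold known targets of KLF4, KLF5 and KLF6. Of 26 corneal and barrier genes, 10 rose and 3 fell by day 6, 8 rose and 1 fell after it, and 13 rose and 1 fell over the whole course. At the first step 38.5% of the list rose and 11.5% fell, against 8.06% and 6.73% of all genes. In either direction the second step and the whole course had 34.6% and 53.8% of the list, against 15.4% and 32.9% of all genes. KRT13 rose 10.9-fold [8.78 to 13.7] by day 6, the membrane mucin MUC4 rose 28.5-fold [24.7 to 33.2] and the water channel AQP5 28.4-fold [21.9 to 37.5] after it. By sign, 8 of the 26 (30.8%, against 22.1% of all measured genes) had their lowest level on day 6, namely DSG3, DSC2, CDSN, CLDN4, OCLN, TJP1, GRHL3 and MUC1. The tight junction gene CLDN4 was at 47.7, 17.3 and 29.4 CPM and fell 2.77-fold [2.35 to 3.26] at the first step. GRHL3, a barrier regulator, fell 2.49-fold [2.10 to 2.98] by day 6 and was at 39.1, 15.7 and 16.9 CPM. For the 13 cell cycle genes measured, the call was 1 up and 0 down at the first step, 7.7% against 14.8% of all measured genes. At the second step it was 1 up and 5 down, 46.2% against 15.4%. The fibroblast markers at the second step were 1 up and 7 down of 16. The fallers were 43.8% of them, against 7.1% of all measured genes. The inhibitor CDKN1A, a target of KLF4 and KLF6 in human cells, was at 102, 76.7 and 167.5 CPM, lowest on day 6, and rose 2.18-fold [2.02 to 2.37] after it. By sign only 2 of the 13 cell cycle genes, CDKN1A and CCND3, were lowest on day 6 (15.4%, against 22.1% of all measured genes). CDKN2B rose 5.59-fold [4.11 to 7.75] from day 4 to day 10, MYC fell 3.42-fold [2.99 to 3.92] and CCNE1 8.64-fold [5.91 to 13.1].

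**Figure D4:**
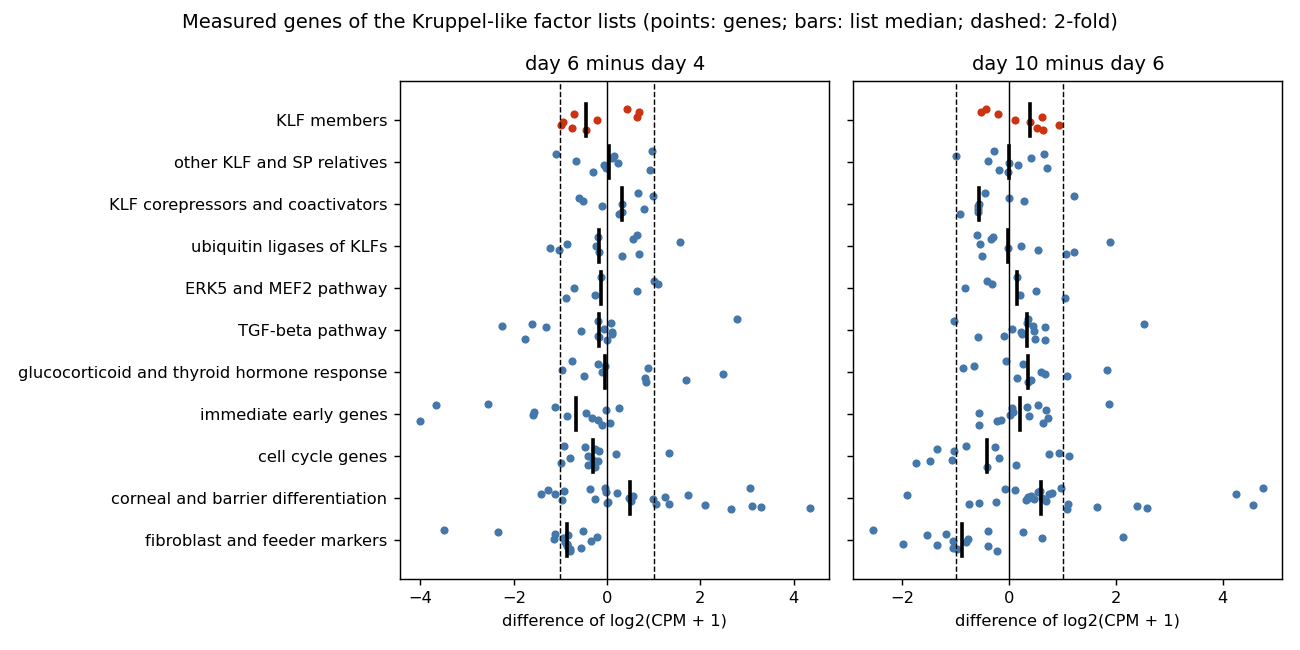
Difference of log2(CPM + 1) of each measured gene in the lists read beside the Kruppel-like factors, for both steps, with a black bar at each list's median and dashed lines at 2-fold. The members (red) stay within 2-fold at both steps, with medians of -0.46 and 0.39, while single genes of the TGF-beta, immediate early and barrier lists lie well beyond it.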

How the data were processed

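The deposited tables give, per the file headers, a fragment and a read count, FPKM and TPM for each coding sequence. The counts the authors deposited are estimated counts, of which 44.9% to 46.5% per library are fractional, and no source used here says how they were made. The authors' FPKM and TPM are normalized for length and depth, and TPM sums to between 999978.8 and 999985.6 per library. The submitters' processing notes name the build OryCun2.0. Aligner, counter and strand setting: not given in the sources used here. Reads of overlapping or antisense genes may therefore be mixed.

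Fragments were summed per gene name, rounded and scaled with TMM factors of 1.071, 0.958 and 0.974 (edgeR 4.0.16, R 4.3.3). Differences use log2(CPM + 1). The fixed design assumed 1 library per stage and no test. The call rule was tested on simulated Poisson counts, with folds planted only in genes of at least 10 CPM on average. That simulation had no variation between libraries, so it cannot show how far the calls made here would repeat. Coding lengths were computed from fragments, FPKM and totals. Names come from the tables. KRT13, LYZ and ITGAM were found through their gene IDs in the RefSeq table of mOryCun1.1, used for names only. No sequences are printed, as none were in the sources used here.

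The members and the 15 lists were chosen with earlier results of these data known. The genes named are all members, the corneal markers, up to 2 risers and 2 fallers per list and comparison that reached 2-fold and 10 CPM, and the 2 genes nearest to each member past 2-fold. Others named from a list were chosen after their values were seen. Single list genes that the rule would name are not reported here. The intervals cover counting error only, and hold no variation between cultures or libraries. They may be too narrow even for counting error, since PCR copies are not independent molecules and the counts are rounded estimates.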

Additional observations from a re-analysis of the deposited data

How the results depend on the processing

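The counts of members past the threshold were small and moved with the setting. Between day 4 and day 6, where 0 members fell, 1 fell with DESeq2 size factors (version 1.42.0), 1 with a pseudocount of 0.1 and 1 with the highest coding sequence (KLF5 each time), 2 with no TMM factor (KLF5 and KLF6), and 4 with TPM and 4 at a 1.5-fold threshold (KLF4, KLF5, KLF6 and KLF10 in both). At 1.5-fold 2 members also rose at that step, KLF9 and KLF11, and 3 rose between day 6 and day 10, KLF3, KLF5 and KLF9. From day 4 to day 10, 1 fell with no TMM factor, 1 with TPM and 1 at 1.5-fold, KLF10 each time. KLF9 was the 1 riser of that comparison except with a pseudocount of 5 and at a 4-fold threshold, which left 0. Its log2 difference ran from 0.95 to 1.42 over 7 alternatives. The cause of these moves was not tested, beyond what each threshold, pseudocount or scaling does by construction. No called difference of a named gene turned in sign. With read counts the member counts were those given above. A minimum of 5 CPM or no minimum could not change them, because every member reached 5 CPM in at least 1 library.

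The lowest level of KLF3, KLF4, KLF5 and KLF6 on day 6 kept its sign at both steps in all 7 alternatives that give a difference. These are not independent checks, since a pseudocount cannot change a sign and all settings use the same 3 libraries. For KLF4 and KLF6, with 1 coding sequence each, the highest coding sequence holds the same counts. For day 10 against day 4, the signs of KLF3 and KLF11 turned with TPM, to -0.22 and -0.26. Over all genes, the counts risen and fallen by day 6 were 1033 and 863, against 558 and 1629 with TPM, 472 and 451 with a pseudocount of 5, 151 and 86 at 4-fold and 2510 and 2310 at 1.5-fold. After day 6 the counts of 1058 and 910 became 562 and 452 with a pseudocount of 5, 215 and 32 at 4-fold and 2449 and 2458 at 1.5-fold. Over the whole course the 2190 and 2024 became 1382 and 2945 with TPM, 1324 and 1319 with a pseudocount of 5, 603 and 396 at 4-fold and 3715 and 3542 at 1.5-fold. Members under 100 fragments, KLF7 and KLF13, KLF9 on day 4 and KLF11 on days 4 and 10, have the widest intervals. No paired analysis was possible because each stage has 1 library.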
